A study of Mus musculus with 8 samples.

Results

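The genes described are 41 genes of the hepatic stellate cell and its matrix: collagen chains, proteoglycans and other matrix proteins, the enzymes and inhibitors that remodel matrix, contractile and stellate cell genes, and the TGF-β ligands. They were chosen by name, each matched to 1 Ensembl identifier through the GENCODE annotation, and are 41 of the 45706 identifiers in the count table. All 41 were among the 15491 genes that passed the filter on low counts. RNA-seq measured them in whole liver of 8 male mice, 4 labelled *Srsf10-kd* and 4 labelled *Ctrl*, to ask what lowering the splicing factor SRSF10 does to the liver in obesity. All 8 mice carried an AAV2/8 virus injected at 6 weeks of age, with a chicken β-actin (CBA) promoter driving GFP and a mirE/shRNA, and from 4 weeks later they ate a diet with 60% of calories from fat for 12 weeks, so that age at the end was 22 weeks. The shRNA was against *Srsf10* in the *Srsf10-kd* group, whose genotype label is Srsf10KD, and was a control in the *Ctrl* group, labelled WT. The strain label reads C56B6/J for all 8 mice and the study's methods name C57BL/6J. The CBA promoter is active in many cell types, so the promoter itself does not limit the shRNA to hepatocytes. The paper describes the AAV as designed for delivery specific to the liver. Which liver cells carried the shRNA was not measured here.

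Stellate cells sit between hepatocytes and sinusoidal endothelium, store retinol as esters and lie quiet in healthy liver. When liver is injured, TGF-β and PDGF turn them into contractile cells that lay down fibrillar collagen, the scar of fibrosis, while proteases and their TIMP inhibitors set how much of it is removed. Fatty liver disease can run from steatosis to such fibrosis, and other cells of liver, among them portal fibroblasts, smooth muscle, endothelium and hepatocytes, also make part of this matrix.

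*Srsf10* itself stood at 34.3, 34, 41 and 36.5 CPM (counts scaled to a common library size by TMM normalization) in *Srsf10-kd* 1 to 4 and at 31.6, 33.7, 35.3 and 30.9 CPM in *Ctrl* 1 to 4, and its adjusted p was 0.378. No reduction of its RNA was seen in these gene counts under the *Srsf10-kd* label, so both groups are named by label only. The paper reports lower SRSF10 in livers given this shRNA, by qPCR for the RNA and by western blot for the protein. It does not say whether these 8 livers were among those measured. Between 50456404 and 59697241 counts were assigned to genes in each liver, of which the 41 genes took 0.109% to 0.156%. *Ctrl* 3 and *Srsf10-kd* 3 stood apart from their groups. On a regression of log2 counts on log2 transcript length relative to the mean liver, the slope was -0.030 in *Ctrl* 3 and 0.091 to 0.13 in the other *Ctrl* livers, and -0.18 in *Srsf10-kd* 3 and -0.064 to -0.024 in the other *Srsf10-kd* livers. Fitted values are log2 fold changes of *Srsf10-kd* over *Ctrl* from the quasi-likelihood test of edgeR (two-sided), and p was adjusted by Benjamini-Hochberg over the 15491 genes. The sources do not say more of how the livers were drawn, so p-values measure the spread between these 8 livers. In whole liver, fewer cells of a type and less RNA per cell cannot be told apart.

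Levels can be compared between genes only per length, and for this TPM were computed with the exon-union length of each gene. *Col18a1*, whose chain yields endostatin, had by far the highest level of the 41, a mean of 229 TPM over 8 livers. It was followed by *Ecm1*, which encodes a secreted matrix glycoprotein, at 81 TPM and *Dcn*, which encodes the proteoglycan decorin, at 54.4 TPM. *Sparc*, *Bgn*, *Rgs5*, *Timp3*, *Mmp14*, *Col14a1* and *Vim* lay between 10.5 and 24.8 TPM. The fibrillar chains that make up scar were low, with 3.04 TPM for *Col3a1*, 1.36 TPM for *Col1a2* and 1.16 TPM for *Col1a1*. The lowest of the 41 was the crosslinking enzyme *Lox*, at 0.337 TPM, close to *Tgfb2* (0.428 TPM), *Fbn1* (0.428 TPM) and *Timp1* (0.444 TPM), whose ranges over livers overlap. With the longest transcript as length, an alternative chosen after seeing the data, the TPM of 6 genes moved by over 1.5 times, among them *Col1a2* (2.62 TPM) and *Bgn* (38.9 TPM), and *Col18a1*, *Ecm1* and *Dcn* stayed the 3 highest. The 10 stellate cell, pericyte and contractile genes were all present, from 1.16 TPM for *Thy1* to 19.9 TPM for *Rgs5*. Among them the retinol esterification gene *Lrat* stood at 4.003 TPM and *Reln* at 3.89 TPM.

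**Figure D1:**
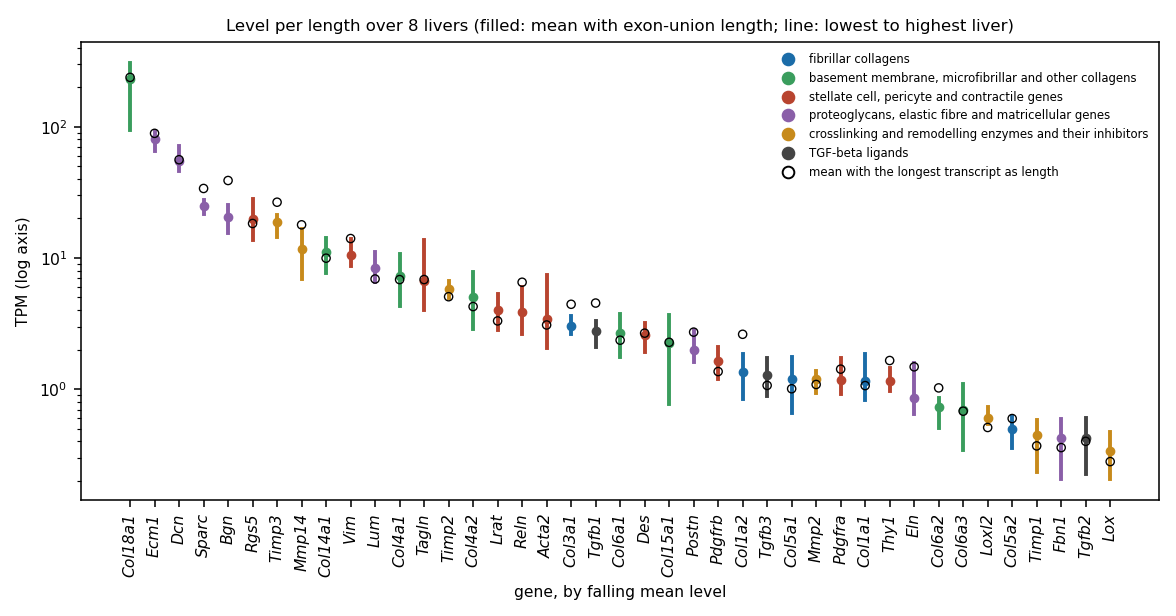
Level per length of the 41 genes, ordered by mean TPM on a log axis, with filled points for the mean of 8 livers (exon-union length), lines from the lowest to the highest liver and open points for the mean with the longest transcript as length. *Col18a1* lies highest at 229 TPM and *Lox* lowest at 0.337 TPM.

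Between the groups, none of the 41 genes passed an adjusted p of 0.05, a threshold that 0.0710% of all genes tested passed in either direction (11 of 15491). Of the 41, 23 had a positive and 18 a negative log2 fold change, with a median of 0.037 beside a median of 0.013 over all genes tested. An unadjusted p under 0.05 was found for 4 genes with higher levels in *Srsf10-kd* livers, *Tagln*, *Vim*, *Timp3* and *Tgfb3*, beside 11.2% of all genes tested in that direction. It was found for 2 genes with lower levels, *Col14a1* and *Rgs5*, beside 10.6% of all genes. The 4 and 2 of 41 are near or under those shares. The groups did not overlap for 0 genes with higher levels, where 6.73% of all genes did not, and for 1 gene with lower levels, *Col14a1*, where 7.53% of all genes did not. The role groups had different medians: 0.60 for the 3 TGF-β ligands, 0.20 for the 5 fibrillar collagens, 0.15 for the 7 remodelling genes, 0.12 for the 8 proteoglycans and matricellular genes, -0.074 for the 10 stellate and contractile genes and -0.32 for the 8 other collagens.

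**Figure D2:**
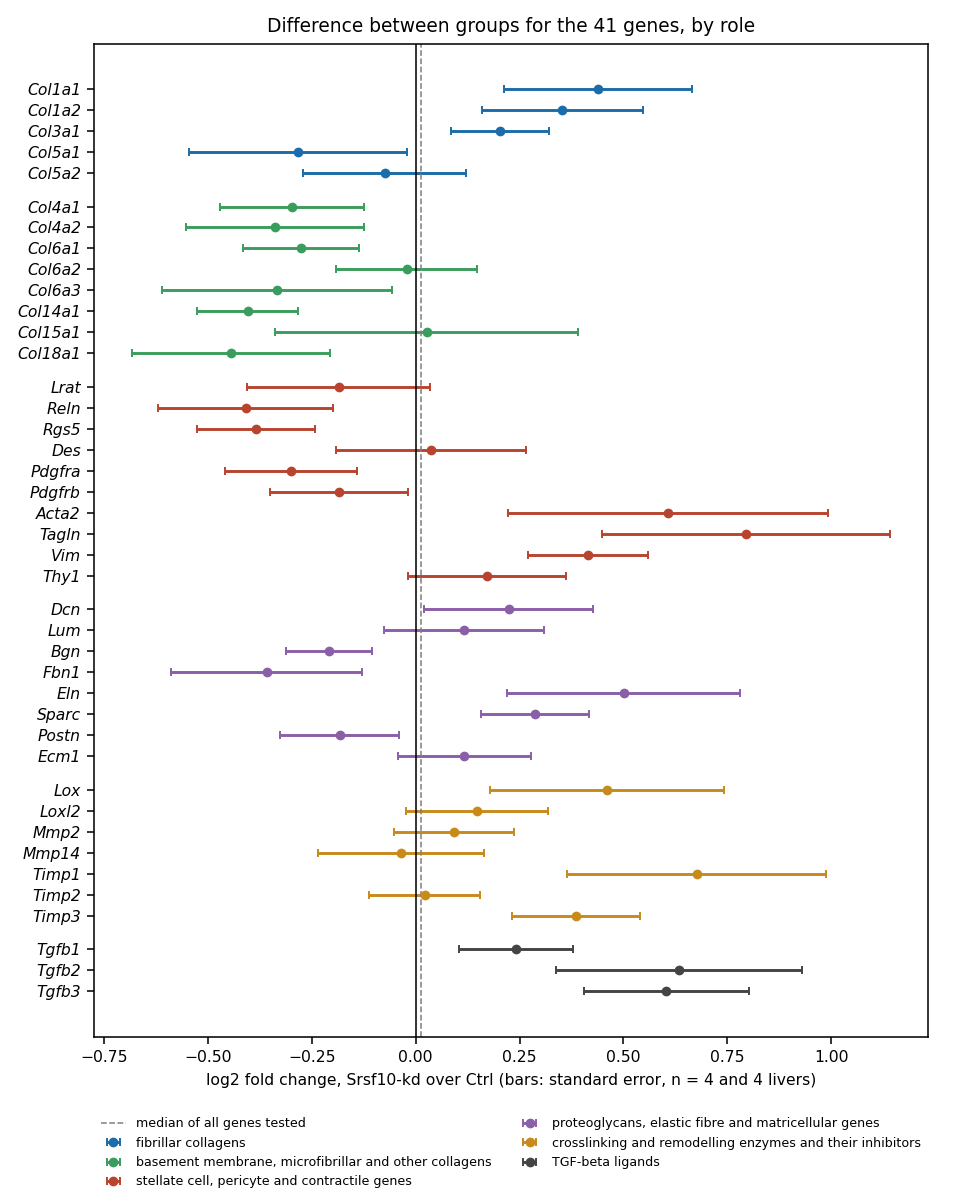
Log2 fold change of each of the 41 genes between *Srsf10-kd* and *Ctrl* livers (4 and 4), grouped and coloured by role, with bars for the standard error and a dashed line at the median of all genes tested (0.013). The 3 TGF-β ligands all lie to the right of 0, and 7 of the 8 non-fibrillar collagens lie to the left.

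The fibrillar collagens form the ropes of scar tissue. Type I collagen is built from the chains of *Col1a1* and *Col1a2* and type III from that of *Col3a1*, while the chains of *Col5a1* and *Col5a2* seed the fibrils. RefSeq promoter windows, 250 bases before to 50 after the annotated start on GRCm38.p6, were available here for 28 of the 41 genes, and those of *Col1a2* and *Col3a1* are shown because their RNAs had the same order of groups while their start regions differ in composition. The TATA box (TATAAA), the CAAT box (CCAAT) and the GC box (GGGCGG) were searched on both strands, and capitals mark each match. The matches do not overlap each other.
Col1a2: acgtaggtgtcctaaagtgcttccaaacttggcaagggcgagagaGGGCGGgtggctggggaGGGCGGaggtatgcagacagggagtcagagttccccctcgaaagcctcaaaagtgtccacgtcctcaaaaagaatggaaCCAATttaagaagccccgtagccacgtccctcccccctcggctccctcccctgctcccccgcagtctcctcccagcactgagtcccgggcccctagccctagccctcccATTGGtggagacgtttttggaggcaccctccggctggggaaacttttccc
Col3a1: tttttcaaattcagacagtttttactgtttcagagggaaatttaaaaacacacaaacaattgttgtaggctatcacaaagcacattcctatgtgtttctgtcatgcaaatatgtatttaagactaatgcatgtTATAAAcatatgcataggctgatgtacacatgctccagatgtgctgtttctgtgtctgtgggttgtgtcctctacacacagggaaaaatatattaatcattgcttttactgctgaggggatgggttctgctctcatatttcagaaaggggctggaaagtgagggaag
The *Col1a2* window (chr6:4505368-4505667, forward strand) has 61.0% G and C and holds GGGCGG 2 times and CCAAT 2 times, once on each strand. The *Col3a1* window (chr1:45311288-45311587, forward strand) has 37.7% G and C and holds TATAAA 1 time, beginning at -117 from the annotated start. In *Col1a2* the CCAAT matches begin at -109 and 0. Matches are to the bases alone, and whether they act as promoter elements was not tested. Among the 32851 promoter windows of the table, 13.6% hold TATAAA, 37.4% CCAAT and 35.7% GGGCGG. Among the 31 windows of these 28 genes these shares were 16.1%, 38.7% and 58.1%.

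*Col1a1* (ENSMUSG00000001506, chromosome 11, 94936224 to 94953042) stood at 3.61, 2.65, 2.35 and 2.41 CPM in *Ctrl* 1 to 4 and at 2.68, 3.52, 3.48 and 5.26 CPM in *Srsf10-kd* 1 to 4. The highest value was that of *Srsf10-kd* 4, and *Ctrl* 1 lay above the other 3 *Srsf10-kd* livers, so that the groups overlapped. Mean *Col1a1* was 3.73 ± 1.08 CPM (SD, n = 4) against 2.75 ± 0.587 CPM (SD, n = 4), with a log2 fold change of 0.44 (standard error 0.23, unadjusted p = 0.0805, adjusted p = 0.271). *Col1a2* (ENSMUSG00000029661, chromosome 6, 4504814 to 4541544) stood at 6.75, 6.7, 4.52 and 7.3 CPM in *Ctrl* livers and at 5.98, 7.61, 8.75 and 9.96 CPM in *Srsf10-kd* livers. *Ctrl* 3 was lowest and *Srsf10-kd* 4 highest. Mean *Col1a2* was 8.08 ± 1.69 CPM (SD, n = 4) against 6.32 ± 1.23 CPM (SD, n = 4), with a log2 fold change of 0.35 (standard error 0.19, unadjusted p = 0.0980, adjusted p = 0.295). *Col3a1* (ENSMUSG00000026043, chromosome 1, 45311538 to 45349706) stood at 12.7, 12.1, 11.1 and 11 CPM in *Ctrl* livers and at 11.4, 13.9, 13.3 and 15.5 CPM in *Srsf10-kd* livers. Here 3 of the 4 *Srsf10-kd* livers lay above every *Ctrl* liver and *Srsf10-kd* 1 lay among them. Mean *Col3a1* was 13.5 ± 1.67 CPM (SD, n = 4) against 11.7 ± 0.794 CPM (SD, n = 4), with a log2 fold change of 0.20 (standard error 0.12, unadjusted p = 0.114, adjusted p = 0.317).

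The fibril-seeding chains had negative log2 fold changes. Mean *Col5a1* was 3.85 ± 0.720 CPM in *Srsf10-kd* and 4.68 ± 1.61 CPM in *Ctrl* livers, and mean *Col5a2* was 1.97 ± 0.454 and 2.07 ± 0.315 CPM. *Ctrl* 3 was lowest in *Col1a1*, *Col1a2* and *Col5a1*, and *Srsf10-kd* 4 was highest in *Col1a1*, *Col1a2*, *Col3a1* and *Col5a2*. Summed over the 5 chains, the level was 22.6 to 30.8 CPM in *Ctrl* and 25.9 to 37.3 CPM in *Srsf10-kd* livers, and these ranges overlap. The ratio of *Col1a2* to *Col1a1* counts ranged from 1.87 in *Ctrl* 1 to 3.04 in *Ctrl* 4, with a coefficient of variation of 17.8% over the 8 livers. Per length, the mean ratio was 1.2 with exon-union lengths and 2.52 with the longest transcripts.

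Type IV collagen is the network of basement membranes. *Col4a1* and *Col4a2* encode its most widespread chains and lie head to head on chromosome 8, transcribed away from each other, and GENCODE places 22 bases of *Col4a1* exon over *Col4a2* exon. Their RefSeq promoter windows are shown because they overlap and because the levels of the 2 RNAs followed each other from liver to liver. Capitals mark the 78 bases (chromosome 8, 11312777 to 11312854) that both windows hold, each written 5′ to 3′ on its own gene's strand.
Col4a1: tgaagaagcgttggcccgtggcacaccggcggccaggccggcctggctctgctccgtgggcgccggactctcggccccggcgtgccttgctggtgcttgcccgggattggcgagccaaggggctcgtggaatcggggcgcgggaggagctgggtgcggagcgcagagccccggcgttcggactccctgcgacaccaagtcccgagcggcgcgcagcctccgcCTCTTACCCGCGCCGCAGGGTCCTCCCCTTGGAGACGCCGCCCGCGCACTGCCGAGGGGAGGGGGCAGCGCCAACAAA
Col4a2: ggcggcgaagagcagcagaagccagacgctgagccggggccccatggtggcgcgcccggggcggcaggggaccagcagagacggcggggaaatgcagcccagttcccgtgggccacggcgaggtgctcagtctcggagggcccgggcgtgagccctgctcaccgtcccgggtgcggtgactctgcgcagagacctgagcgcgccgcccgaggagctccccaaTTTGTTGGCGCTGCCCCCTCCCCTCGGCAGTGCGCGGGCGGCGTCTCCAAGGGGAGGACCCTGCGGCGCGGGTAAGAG
The *Col4a1* window (chr8:11312777-11313076, reverse strand) has 74.0% G and C, holds CCAAT 1 time and GGGCGG 1 time, and the *Col4a2* window (chr8:11312555-11312854, forward strand) has 73.7% G and C, holds CCAAT 1 time and GGGCGG 3 times. Neither holds TATAAA. *Col4a1* (ENSMUSG00000031502, chromosome 8, 11198423 to 11312826) stood at 25.9, 23.3, 19.95 and 31.8 CPM in *Ctrl* 1 to 4 and at 25.7, 19.1, 16.4 and 21 CPM in *Srsf10-kd* 1 to 4. *Col4a2* stood at 17.6, 13.1, 10.5 and 20.9 CPM and 14.9, 12.6, 9.73 and 11.8 CPM in the same order. *Ctrl* 4 was highest and *Srsf10-kd* 3 lowest in both genes, and the groups overlapped in both. Counts of *Col4a2* were 0.525 to 0.678 of those of *Col4a1* in each liver. The coefficient of variation of this ratio was 9.27%, while that of the CPM was 21.3% for *Col4a1* and 27% for *Col4a2*. Mean *Col4a1* was 20.5 ± 3.91 CPM (SD, n = 4) against 25.2 ± 5.02 CPM (SD, n = 4), with a log2 fold change of -0.30 (standard error 0.17, unadjusted p = 0.116, adjusted p = 0.319), and the log2 fold change of *Col4a2* was -0.34 (standard error 0.21).

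*Col14a1* (ENSMUSG00000022371, chromosome 15, 55307750 to 55520803) encodes type XIV collagen, which binds along fibrils and sets their packing. It stood at 37.8, 38.7, 32.4 and 40.1 CPM in *Ctrl* 1 to 4 and at 30.3, 27, 31.8 and 23.4 CPM in *Srsf10-kd* 1 to 4. Every *Srsf10-kd* liver lay below every *Ctrl* liver, with *Srsf10-kd* 3 just under *Ctrl* 3 and *Srsf10-kd* 4 the lowest. Mean *Col14a1* was 28.1 ± 3.75 CPM (SD, n = 4) against 37.2 ± 3.39 CPM (SD, n = 4), with a log2 fold change of -0.40 (standard error 0.12, unadjusted p = 0.00790, adjusted p = 0.139). The exact permutation p over all 70 ways to assign the livers was 0.0286 (two-sided), the smallest that 4 livers against 4 allow. Every gene whose groups do not overlap gets this p, so it adds nothing to that lack of overlap. Of all genes tested, 6.73% had no overlap with higher and 7.53% with lower levels in *Srsf10-kd* livers. With the length trend of every library taken out, the log2 fold change of *Col14a1* was -0.16 with adjusted p = 0.530.

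*Col18a1* made up 29.2% to 56.2% of the counts of the 41 genes, the largest share of any of them. It stood at 853, 831, 534 and 855 CPM in *Ctrl* livers and at 617, 740.0, 339.7 and 563 CPM in *Srsf10-kd* livers. *Ctrl* 3 lay far below the other 3 *Ctrl* livers, *Srsf10-kd* 3 was the lowest of all, and the groups overlapped. Its log2 fold change was -0.44 (standard error 0.24). Without *Col18a1* the other 40 genes summed to 690 ± 26.3 CPM (SD, n = 4) in *Ctrl* and 711 ± 84.7 CPM (SD, n = 4) in *Srsf10-kd* livers. Hepatocytes also make *Col18a1*, and no separation by cell type was possible in whole liver.

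The chains of type VI collagen, which forms beaded microfibrils around cells, had means of 4.45 ± 0.377 CPM against 5.39 ± 0.787 for *Col6a1*, 2.54 ± 0.371 against 2.57 ± 0.398 for *Col6a2* and 3.07 ± 0.223 against 3.87 ± 1.5 for *Col6a3* in *Srsf10-kd* and *Ctrl* livers. *Ctrl* 3 was far below the rest in *Col6a3* at 1.79 CPM, while its *Col6a1* of 5.09 CPM lay inside the *Ctrl* range. *Col15a1*, a basement membrane collagen of capillaries, had the widest spread within both groups among the 8 non-fibrillar collagens, from 4.04 to 9.3 CPM in *Ctrl* and 2.51 to 8.86 CPM in *Srsf10-kd* livers. Its log2 fold change of 0.026 had a standard error of 0.36. Of the 8 non-fibrillar collagens 7 had negative log2 fold changes, and with the length trend taken out *Col6a2* and *Col6a3* turned positive (0.13 and 0.039).

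Of the 10 stellate cell, pericyte and contractile genes, 5 had positive and 5 negative log2 fold changes. *Lrat* (ENSMUSG00000028003, chromosome 3, 82892579 to 82903973), which esterifies retinol for storage, stood at 9.9997, 9.12, 12.4 and 7.36 CPM in *Ctrl* 1 to 4 and at 7.1, 8.34, 12.2 and 6.54 CPM in *Srsf10-kd* 1 to 4. *Ctrl* 3 and *Srsf10-kd* 3 were the highest and nearly equal. Mean *Lrat* was 8.55 ± 2.56 CPM (SD, n = 4) against 9.72 ± 2.1 CPM (SD, n = 4), with a log2 fold change of -0.19 (standard error 0.22, unadjusted p = 0.419, adjusted p = 0.616). *Rgs5* (ENSMUSG00000026678, chromosome 1, 169655501 to 169695813), a regulator of G protein signalling that marks pericytes, stood at 36.3, 43.9, 55.1 and 37.7 CPM in *Ctrl* and 36.8, 30.3, 31.8 and 33.6 CPM in *Srsf10-kd* livers. *Srsf10-kd* 1 lay just above *Ctrl* 1, and the other 3 *Srsf10-kd* livers lay below every *Ctrl* liver. Mean *Rgs5* was 33.1 ± 2.77 CPM (SD, n = 4) against 43.2 ± 8.55 CPM (SD, n = 4), with a log2 fold change of -0.38 (standard error 0.14, unadjusted p = 0.0223, adjusted p = 0.178). *Reln*, which encodes the secreted protein reelin, stood at 44.7, 47.9, 26.9 and 57.4 CPM in *Ctrl* and 34.9, 29.7, 39.8 and 28.8 CPM in *Srsf10-kd* livers. *Ctrl* 3 was lowest of all and the other 3 *Ctrl* livers were above every *Srsf10-kd* liver. Its log2 fold change of -0.41 (standard error 0.21) was -0.0012 with the length trend taken out.

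The PDGF receptors carry the growth signal that makes stellate cells divide. *Pdgfrb* (ENSMUSG00000024620) stood at 4.64, 3.96, 2.84 and 4.53 CPM in *Ctrl* and 3.66, 3.54, 3.4 and 3.46 CPM in *Srsf10-kd* livers. The *Srsf10-kd* livers were close together and lay inside the *Ctrl* range. Mean *Pdgfrb* was 3.51 ± 0.112 CPM (SD, n = 4) against 3.99 ± 0.821 CPM (SD, n = 4), with a log2 fold change of -0.18 (standard error 0.17, unadjusted p = 0.290, adjusted p = 0.503). Mean *Pdgfra*, the receptor of portal fibroblasts as well as stellate cells, was 4.44 ± 0.421 CPM against 5.46 ± 1.06. *Des*, the intermediate filament desmin, was 4.24 ± 1.15 CPM against 4.13 ± 0.950, and *Thy1*, a surface protein of portal fibroblasts and T cells, was 1.56 ± 0.113 CPM against 1.39 ± 0.345.

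*Acta2* (ENSMUSG00000035783, chromosome 19, 34241090 to 34255590), the smooth muscle actin that marks contractile stellate cells, stood at 1.89, 2.94, 3.7 and 1.81 CPM in *Ctrl* 1 to 4 and at 3.02, 1.86, 3.81 and 7.04 CPM in *Srsf10-kd* 1 to 4. *Srsf10-kd* 4 stood alone above all others and the remaining 7 livers were mixed. Mean *Acta2* was 3.93 ± 2.22 CPM (SD, n = 4) against 2.59 ± 0.905 CPM (SD, n = 4), with a log2 fold change of 0.61 (standard error 0.39, unadjusted p = 0.146, adjusted p = 0.353). *Tagln* (ENSMUSG00000032085, chromosome 9, 45929619 to 45936058), the actin-binding protein transgelin, stood at 3.45, 4.2, 5.85 and 3.21 CPM in *Ctrl* and 4.43, 4.07, 8.56 and 11.9 CPM in *Srsf10-kd* livers. *Srsf10-kd* 3 and 4 lay above every *Ctrl* liver, and *Srsf10-kd* 1 and 2 lay within the *Ctrl* range. Mean *Tagln* was 7.24 ± 3.71 CPM (SD, n = 4) against 4.18 ± 1.19 CPM (SD, n = 4), with a log2 fold change of 0.79 (standard error 0.35, unadjusted p = 0.0448, adjusted p = 0.220). Of the 75-base stretches of *Tagln* transcripts, 53.3% also occur in transcripts of *Pcsk7* or *Gm48529*, which overlap it on the other strand, so its counts are uncertain. *Vim* (ENSMUSG00000026728, chromosome 2, 13573927 to 13582826), the intermediate filament of mesenchymal cells, stood at 16.6, 18.2, 20.1 and 18 CPM in *Ctrl* and 21.1, 19.5, 27.7 and 28.9 CPM in *Srsf10-kd* livers. Only *Srsf10-kd* 2 lay under the highest *Ctrl* liver, *Ctrl* 3. Mean *Vim* was 24.3 ± 4.69 CPM (SD, n = 4) against 18.2 ± 1.47 CPM (SD, n = 4), with a log2 fold change of 0.41 (standard error 0.14, unadjusted p = 0.0164, adjusted p = 0.164). *Acta2* and *Tagln* shared their extremes, as *Srsf10-kd* 4 was highest and *Ctrl* 4 lowest in both. Smooth muscle and other mesenchymal cells express these genes too.

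**Figure D3:**
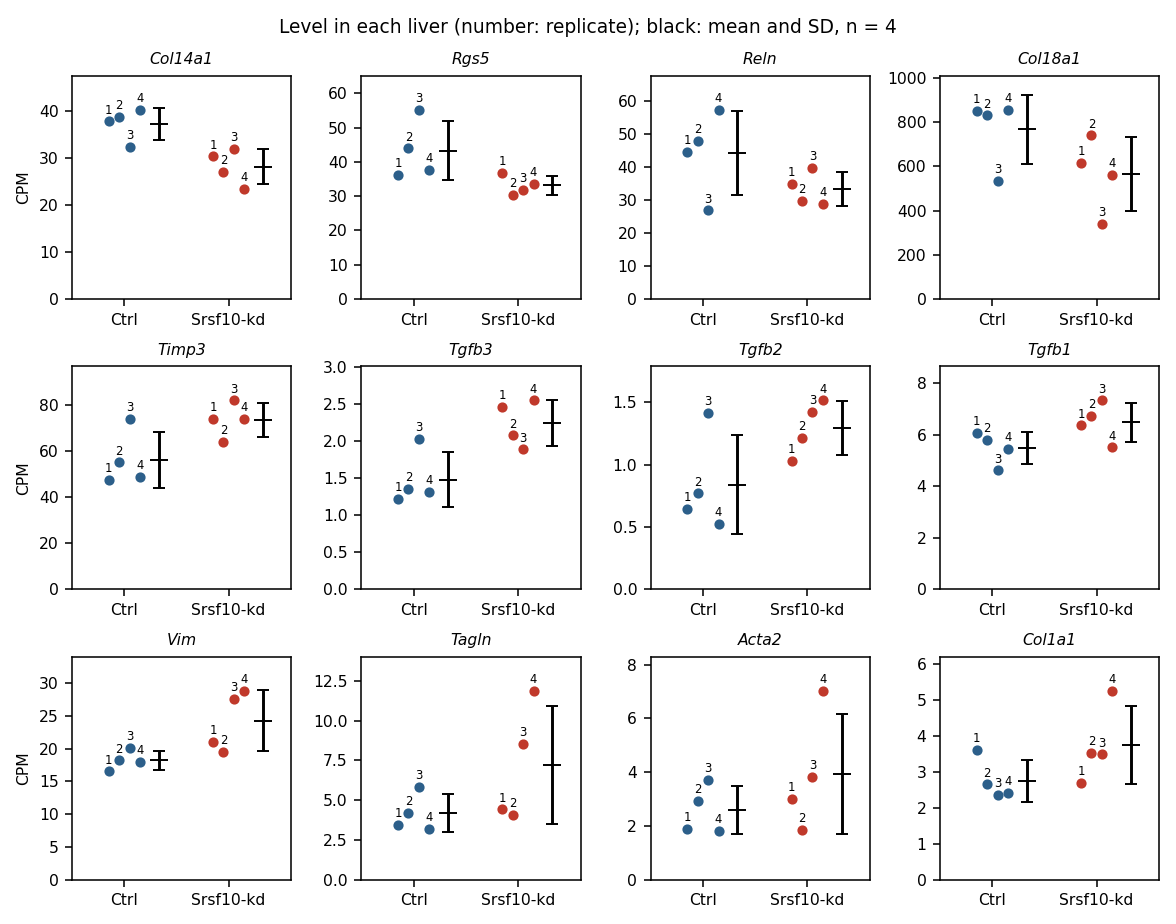
CPM of 12 of the genes in each liver, blue for *Ctrl* and red for *Srsf10-kd*, with the replicate number above each point and the mean and SD (n = 4) in black. All *Col14a1* values of *Srsf10-kd* livers lie under those of *Ctrl* livers, and *Ctrl* 3 lies with the *Srsf10-kd* livers for *Timp3*, *Tgfb2* and *Reln*.

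The proteoglycans, elastic fibre and matricellular genes summed to 310.0 to 337 CPM in *Ctrl* and 289 to 455 CPM in *Srsf10-kd* livers. *Dcn* (ENSMUSG00000019929, chromosome 10, 97479609 to 97518143), whose product decorin binds collagen fibrils and TGF-β, stood at 112, 116, 152 and 123 CPM in *Ctrl* 1 to 4 and at 137, 109, 214 and 128 CPM in *Srsf10-kd* 1 to 4. *Srsf10-kd* 3 stood alone at the top and *Srsf10-kd* 2 was the lowest. Mean *Dcn* was 147 ± 46.3 CPM (SD, n = 4) against 126 ± 18.1 CPM (SD, n = 4), with a log2 fold change of 0.22 (standard error 0.20, unadjusted p = 0.296, adjusted p = 0.508). Without *Srsf10-kd* 3 the log2 fold change of *Dcn* was -0.012. The related gene *Lum*, for lumican, lies next to *Dcn* on chromosome 10 and was 9.06 ± 1.32 CPM against 8.37 ± 2.3. *Bgn*, for biglycan, was 49 ± 1.98 CPM against 56.5 ± 5.83.

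Genes of the elastic fibre differed in direction. *Eln*, for elastin, was 3.46 ± 1.56 CPM in *Srsf10-kd* against 2.44 ± 0.241 in *Ctrl* livers, with *Srsf10-kd* 4 at 5.58 CPM and *Srsf10-kd* 3 at 3.68 CPM above all *Ctrl* livers. *Fbn1*, for the microfibril protein fibrillin, was 1.9 ± 0.566 CPM against 2.44 ± 0.403, and 19.6% of its 75-base stretches are shared with *Gm9913*. Of the matricellular genes, *Sparc* was 44.1 ± 5.89 CPM against 36.2 ± 4.61 with an unadjusted p of 0.0523 in edgeR, and *Postn*, for periostin, was 6.79 ± 0.639 CPM against 7.7 ± 1.3. *Ecm1* was 90.6 ± 19.8 CPM against 83.5 ± 10.5, with *Srsf10-kd* 3 far above the others of its group at 120.0 CPM.

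Crosslinking and remodelling genes were mostly higher on average in *Srsf10-kd* livers, 6 of 7, and their sum was 84.1, 98, 113 and 102 CPM in *Ctrl* 1 to 4 and 123, 106, 118 and 118 CPM in *Srsf10-kd* 1 to 4. *Ctrl* 3 lay within the *Srsf10-kd* range. Most of that sum was *Timp3* (ENSMUSG00000020044, chromosome 10, 86300372 to 86349506), whose product inhibits metalloproteinases and stays bound in the matrix. It stood at 47.4, 55, 73.9 and 48.7 CPM in *Ctrl* and 73.8, 64.1, 82 and 73.9 CPM in *Srsf10-kd* livers. All 4 *Srsf10-kd* livers lay above *Ctrl* 1, 2 and 4, while *Ctrl* 3 lay between them. Mean *Timp3* was 73.5 ± 7.33 CPM (SD, n = 4) against 56.2 ± 12.2 CPM (SD, n = 4), with a log2 fold change of 0.39 (standard error 0.15, unadjusted p = 0.0311, adjusted p = 0.198). *Syn3* overlaps *Timp3* on the other strand and holds 20.6% of its 75-base stretches, and which strand was counted is not given in the sources used here.

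*Timp1* (ENSMUSG00000001131, chromosome X, 20870166 to 20874735), an inhibitor gene that is strongly induced in fibrosis, had very few counts, 6, 5, 9 and 9 in *Ctrl* 1 to 4 and 12, 11, 12 and 10 in *Srsf10-kd* 1 to 4. In raw counts every *Srsf10-kd* liver was above every *Ctrl* liver. In CPM it stood at 0.104, 0.0818, 0.179 and 0.158 and at 0.209, 0.211, 0.233 and 0.178, and *Srsf10-kd* 4 lay just under *Ctrl* 3. Mean *Timp1* was 0.208 ± 0.0227 CPM (SD, n = 4) against 0.131 ± 0.0454 CPM (SD, n = 4), with a log2 fold change of 0.68 (standard error 0.31, unadjusted p = 0.0554, adjusted p = 0.238). *Timp2* was 9.71 ± 1.64 CPM against 9.57 ± 0.450. *Lox* and *Loxl2*, which crosslink collagen, were 0.799 ± 0.222 CPM against 0.583 ± 0.172 and 1.47 ± 0.235 CPM against 1.32 ± 0.155, and 43.6% of the 75-base stretches of *Loxl2* occur in other transcripts. *Mmp2* and *Mmp14*, a gelatinase and the membrane protease that activates it, were 1.76 ± 0.176 CPM against 1.65 ± 0.120 and 29 ± 6.48 CPM against 29.7 ± 7.21.

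TGF-β is the main signal for collagen synthesis in stellate cells, and its 3 ligand genes all had higher means in *Srsf10-kd* livers. *Tgfb1* (ENSMUSG00000002603, chromosome 7, 25687002 to 25705077), the most abundant of the 3 per length at 2.8 TPM, stood at 6.08, 5.79, 4.62 and 5.44 CPM in *Ctrl* 1 to 4 and at 6.36, 6.73, 7.33 and 5.51 CPM in *Srsf10-kd* 1 to 4. *Srsf10-kd* 4 lay among the *Ctrl* livers and the other 3 *Srsf10-kd* livers lay above them. Mean *Tgfb1* was 6.48 ± 0.765 CPM (SD, n = 4) against 5.48 ± 0.633 CPM (SD, n = 4), with a log2 fold change of 0.24 (standard error 0.14, unadjusted p = 0.108, adjusted p = 0.309). *Tgfb2* stood at 0.642, 0.769, 1.41 and 0.527 CPM in *Ctrl* and 1.03, 1.21, 1.42 and 1.51 CPM in *Srsf10-kd* livers. *Ctrl* 3 lay among the *Srsf10-kd* livers and the other *Ctrl* livers lay below them all. Its log2 fold change was 0.63 (standard error 0.30). *Tgfb3* (ENSMUSG00000021253, chromosome 12, 86056745 to 86079041) stood at 1.22, 1.36, 2.03 and 1.32 CPM in *Ctrl* and 2.46, 2.08, 1.89 and 2.55 CPM in *Srsf10-kd* livers. Only *Srsf10-kd* 3 lay under the highest *Ctrl* liver, again *Ctrl* 3. Mean *Tgfb3* was 2.24 ± 0.313 CPM (SD, n = 4) against 1.48 ± 0.371 CPM (SD, n = 4), with a log2 fold change of 0.60 (standard error 0.20, unadjusted p = 0.0125, adjusted p = 0.154). The sum of the 3 ligands was 7.93, 7.91, 8.06 and 7.29 CPM in *Ctrl* 1 to 4 and 9.85, 10.01, 10.6 and 9.57 CPM in *Srsf10-kd* 1 to 4, and these ranges did not overlap. Most of that sum was *Tgfb1*, and in each ligand alone the groups overlapped. The sums of the other role groups overlapped too, and of all single genes tested 6.73% had higher levels without overlap. No p is given for the sum of the ligands, since the genes were grouped with results known.

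A few livers held most of the highest and lowest values. *Srsf10-kd* 4 was the highest liver in 14 of the 41 genes, among them *Col1a1*, *Col1a2*, *Col3a1*, *Acta2*, *Tagln*, *Vim*, *Eln* and *Lox*. *Srsf10-kd* 3 was highest in 8, among them *Dcn*, *Ecm1*, *Sparc*, *Timp3* and *Tgfb1*, and lowest in 7, among them *Col4a1*, *Col4a2*, *Col15a1* and *Col18a1*. *Ctrl* 4 was highest in 12, among them the same 4 collagens with *Reln* and *Col14a1*, and lowest in 6, among them *Acta2* and *Tagln*. *Srsf10-kd* 2 was lowest in 9 genes and *Ctrl* 3 in 9, and *Srsf10-kd* 1 was neither highest nor lowest in any of the 41. The 2 livers with the most *Acta2* and *Tagln* were thus labelled *Srsf10-kd*, with *Acta2* of *Srsf10-kd* 3 just above *Ctrl* 3 (3.81 and 3.7 CPM). The other 2 livers of that label were not above the *Ctrl* range in either gene. Smooth muscle markers outside the 41 summed to 131 and 104 CPM in *Srsf10-kd* 3 and 4. In *Ctrl* 1 to 4 that sum was 122, 129.7, 81.5 and 128 CPM.

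**Figure D4:**
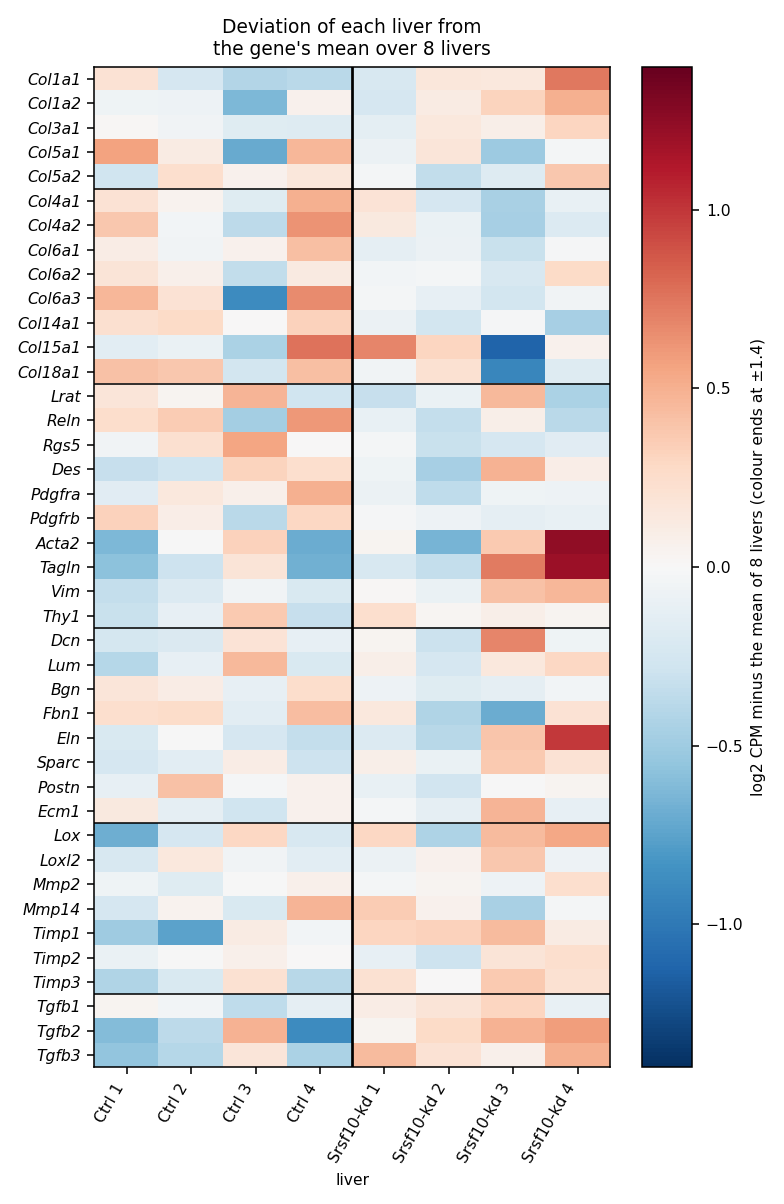
Deviation of each liver from the mean of 8 livers for each gene, in log2 CPM, red for above and blue for below, with the colour ending at ±1.4, a black line between *Ctrl* and *Srsf10-kd* livers and lines between the role groups. *Srsf10-kd* 4 is darkest red for *Acta2* and *Tagln*, and *Srsf10-kd* 3 is darkest blue for *Col15a1* and *Col18a1*.

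The direction of the genes moved with the length of their transcripts. Of the 21 genes whose longest transcript has at most 4741 bases, 17 had positive log2 fold changes (median 0.22), and of the 20 longer genes 14 had negative ones (median -0.18). Across the 41 genes Spearman's rho between log2 fold change and length was -0.62, and across the 15429 genes tested that have a length it was -0.51. These are descriptions across genes of the same 8 libraries, and genes are not independent replicates. With every library's lowess trend on length taken out, rho was -0.25 over the 41 and -0.023 over all genes, 28 of the 41 had positive log2 fold changes with a median of 0.084, and 0 passed an adjusted p of 0.05. The fibrillar chains then had log2 fold changes of 0.65 for *Col1a1*, 0.55 for *Col1a2* and 0.39 for *Col3a1*, with adjusted p from edgeR of 0.232, 0.231 and 0.216. Those of *Timp3*, *Tgfb3* and *Tgfb2* were 0.52, 0.63 and 0.78. The log2 fold changes of *Col4a1* and *Pdgfra* were -0.059 and -0.048. The part of the length trend in these differences was not tested.

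The number of genes called depended on the test and on the 2 livers that stood apart. DESeq2, which the study used, called 1 of the 41, *Col14a1* as lower (log2 fold change -0.42, adjusted p = 0.0483), where it called 3.25% of all genes lower and 2.02% higher. Limma-voom with sample quality weights called *Timp3*, *Tgfb2* and *Tgfb3* as higher, beside 5.03% of all genes, and *Col14a1* and *Reln* as lower, beside 6.68%. The edgeR test without *Ctrl* 3 called *Timp3*, *Tgfb2* and *Tgfb3* as higher, beside 1.29% of all genes, with log2 fold changes of 0.54, 0.995 and 0.79 and adjusted p of 0.0466, 0.0477 and 0.0442. Without both *Ctrl* 3 and *Srsf10-kd* 3, a choice made after seeing the data, edgeR called 1342 of 15560 genes, 2.76% of all as higher and 5.87% as lower, and the 5 that limma-voom called were among them. Their log2 fold changes in that fit were 0.95 for *Tgfb2*, 0.86 for *Tgfb3*, 0.49 for *Timp3*, -0.53 for *Col14a1* and -0.68 for *Reln*. The fibrillar chains, *Acta2*, *Lrat* and *Pdgfrb* were called in none of these fits.

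Further lists of matrix genes had no member past an adjusted p of 0.05 in edgeR either. DESeq2, which called 2.02% of all genes higher and 3.25% lower, called 3 of them as higher, *Fbln2*, *Fbln5* and *Plat*, and 0 as lower. The counts of unadjusted p under 0.05 that follow stand beside 11.2% of all genes tested with higher and 10.6% with lower levels. Of 25 further collagen chains 15 passed the filter, 9 with positive and 6 with negative log2 fold changes, and 1 had an unadjusted p under 0.05, *Col12a1* (-0.37). Of 30 genes that fold, modify and process collagen 27 passed the filter, 12 positive and 15 negative, with unadjusted p under 0.05 for 3 in each direction, led by *Fkbp10* (0.58), a prolyl isomerase, *Pcolce* (0.50), which enhances procollagen cleavage, and *P3h3* (-0.33), a prolyl hydroxylase. Of 37 non-collagen matrix genes 34 passed the filter, 19 positive and 15 negative, with 4 unadjusted p under 0.05 in each direction, led by *Fbln5* (0.53) and *Fbln2* (0.58), for fibulins of elastic fibres, and *Lama2* (-0.63), a laminin chain. Of 26 matrix proteases and inhibitors 23 passed, 13 positive and 10 negative, with 4 unadjusted p under 0.05 in each direction, led by *Plat* (0.70), *Adamts4* (0.63) and *Plaur* (0.66), which encode tissue plasminogen activator, an aggrecanase and the urokinase receptor. Although these named genes were all higher, the groups did not overlap for 3 genes with higher and 5 with lower levels. Over all genes tested those shares were 6.73% and 7.53%.

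A list of TGF-β pathway genes other than the ligands did not share a direction. It mixed receptors, SMADs and target genes with inhibitors of the pathway and genes that bind or activate the latent ligands. Its split and median are therefore no measure of signalling downstream of the ligands. Of its 31 genes 30 passed the filter, 13 with positive and 17 with negative log2 fold changes, with a median of -0.084. An unadjusted p under 0.05 in edgeR was found for 3 in each direction. *Tgfbr1*, the type I receptor, was 20.8 to 26.9 CPM in *Srsf10-kd* and 28.8 to 33 CPM in *Ctrl* livers, with no overlap (log2 fold change -0.35, adjusted p = 0.142). *Thbs1*, whose product thrombospondin can activate TGF-β, was 9.05 to 11.6 CPM against 5.29 to 9.25 (0.55), and *Ccn1*, a matricellular target, was 21.1 to 26.6 CPM against 16.4 to 22.9 (0.41). In this list 0 genes with higher and 4 with lower levels had groups that did not overlap, *Tgfbr1* among them, beside 6.73% and 7.53% of all genes tested.

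Markers of resting stellate cells outside the 41 were tested as a list of 20, all of which passed the filter. Their log2 fold changes were positive for 11 and negative for 9, with a median of 0.040, and unadjusted p under 0.05 was found for 2 higher and 5 lower, beside 11.2% and 10.6% of all genes tested. *Abcc9*, a potassium channel regulator, was 13.7 to 17.3 CPM in *Srsf10-kd* and 18.9 to 28.4 CPM in *Ctrl* livers (log2 fold change -0.62, adjusted p = 0.115). *Hgf*, the hepatocyte growth factor made by stellate cells, was 2.26 to 7.9 CPM against 8.06 to 18.1 (-1.29, adjusted p = 0.131). *Vipr1*, a receptor of vasoactive intestinal peptide, was 21.4 to 28.6 CPM against 30.5 to 37.2 (-0.40, adjusted p = 0.137). The groups did not overlap in any of these 3, nor in *Colec10*, so that 4 of the 20 had lower levels without overlap, beside 7.53% of all genes tested. DESeq2 called these 4 as lower, beside 3.25% of all genes. The sum of the list was 160.1 to 218 CPM in *Srsf10-kd* and 196 to 227 CPM in *Ctrl* livers, and overlapped.

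Markers of other cell types that make matrix moved with the groups in part. Of 8 cholangiocyte markers 7 passed the filter and all 7 had positive log2 fold changes (median 0.56), with a sum of 21.9 to 27.7 CPM in *Srsf10-kd* and 14.5 to 19.95 CPM in *Ctrl* livers, which did not overlap. They were led by *Krt19* (0.73), *Cldn7* (0.67) and *Epcam* (0.56). An unadjusted p under 0.05 in edgeR was found for 4 of the 7, beside 11.2% of all genes tested in that direction. The groups did not overlap for 2, beside 6.73% of all genes. DESeq2 called *Krt19* and *Cldn7* as higher, beside 2.02% of all genes. Of 12 portal fibroblast and mesothelial markers 11 passed and 10 were positive (median 0.66), led by *Cd34* (0.59), *Pi16* (0.64) and *Upk3b* (0.94). Their sums of 31.4 to 59.2 CPM against 26.8 to 34.4 CPM overlapped. An unadjusted p under 0.05 in edgeR was found for 4 of the 11, all higher, beside 11.2% of all genes. The groups did not overlap for 1, beside 6.73% of all genes, and DESeq2 called 0. Of 10 smooth muscle markers 7 were positive and 0 had an unadjusted p under 0.05 in edgeR, with sums of 87.9 to 131 CPM against 81.5 to 129.7 CPM. These cell types express fibrillar collagens, *Vim*, *Tagln* or TGF-β ligands, and their part in the differences of the 41 genes was not tested.

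The sums of the remaining marker lists overlapped between groups. Unadjusted p under 0.05 in edgeR stands here beside 11.2% of all genes tested with higher and 10.6% with lower levels. Of 8 sinusoidal endothelial markers 4 were positive and 4 negative, led by *Lyve1* (0.57), *Pecam1* (0.30) and *Stab2* (-0.57), with sums of 251 to 301 CPM in *Srsf10-kd* and 283 to 320.1 CPM in *Ctrl* livers. That p was found for 2 of them in each direction. The groups did not overlap for 1 in each direction, beside 6.73% of all genes with higher and 7.53% with lower levels. Of 10 Kupffer cell and macrophage markers 4 were positive and 6 negative, with *Cd9* (0.43) and *Trem2* (0.67) under an unadjusted p of 0.05 and sums of 183 to 302 against 216 to 305 CPM. Of 8 hepatocyte markers 3 were positive and 5 negative, with *Hnf4a* (-0.50) under that p and sums of 97812 to 115066 against 81312 to 107395 CPM. Of 8 lymphocyte and neutrophil markers 7 passed the filter, 4 positive and 3 negative, with *Cd79a* (0.55) under that p and sums of 2.24 to 4.2 against 2.39 to 4.28 CPM. Of 4 adipocyte markers 3 passed, all positive with none under that p in edgeR, and their sums ranged widely within each group, 1.1 to 31.8 CPM in *Srsf10-kd* and 0.632 to 11.5 CPM in *Ctrl* livers, the highest in *Srsf10-kd* 3.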

How the data were processed

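Gene counts of 8 mouse livers were analysed, 4 per group. The authors made directional poly(A) libraries, sequenced paired ends, used STAR 2.7.7a on GRCm38 for alignment and counting, and deposited the raw counts per gene without normalization. The annotation release and the strand column are not given in the sources used here. Total counts per liver were 50456404 to 59697241, and no 2 columns were duplicates.

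The 41 genes and all lists were chosen with earlier results of these data known. Symbols, positions and lengths came from GENCODE M21 of GRCm38 (45143 of 45706 identifiers matched), and promoter windows from RefSeq. In R 4.3.3, edgeR 4.0.16 (TMM, filterByExpr, quasi-likelihood F test on group alone, Benjamini-Hochberg, threshold 0.05) was fitted to all genes. A standard error is the log2 fold change divided by the square root of its F statistic. Log2 CPM used a prior count of 2. For single genes a two-sided exact permutation test was also run, with 70 assignments. Besides the value given for *Col14a1*, its p was 0.0571 for *Rgs5*, *Vim* and *Tgfb3*, 0.0857 for *Timp3* and 0.2 for *Tagln*. These are the other genes of the 41 with an unadjusted p under 0.05 in edgeR. Given in full are genes with an unadjusted p under 0.05 or groups that do not overlap, and 10 anchors fixed by name: *Col1a1*, *Col1a2*, *Col3a1*, *Col4a1*, *Acta2*, *Lrat*, *Pdgfrb*, *Timp1*, *Tgfb1* and *Dcn*. The others are given by means or ranges. Some genes of the other lists are not reported here. Of each other list, up to 3 genes with the smallest unadjusted p under 0.05 are named. Where single livers are printed for *Col4a2*, *Col18a1*, *Reln* and *Tgfb2*, these were chosen after their values were seen.

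Alternatives were DESeq2 1.42.0, limma 3.58.1 (voom with sample quality weights), edgeR scaled by DESeq2 size factors or by library size alone, edgeR with no filter or with a minimum of 10 counts in every liver, a replicate block, the trend of log2 counts on transcript length taken out (lowess, span 0.5) and each liver left out. Leaving out both *Ctrl* 3 and *Srsf10-kd* 3, leaving out genes that share stretches of 75 bases, and the longest transcript as length were added after seeing the data. The scripts were tested on simulated data.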

Additional observations from a re-analysis of the deposited data

Results flagged for a closer look

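In each group of 4 livers the gap from the highest or lowest liver to its neighbour was compared with the group's range (Dixon's test at the 95% level). Of 82 groups, 3 passed, where chance gives about 4.1. *Col18a1* was 534 CPM in *Ctrl* 3, while the other *Ctrl* livers were at 831 to 855 CPM. *Pdgfra* was 3.81 CPM in *Srsf10-kd* 2, while the other *Srsf10-kd* livers were at 4.62 to 4.67 CPM. *Ecm1* was 120.0 CPM in *Srsf10-kd* 3, while the other *Srsf10-kd* livers were at 79.0 to 84.1 CPM.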

How the results depend on the processing

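Of the 41 genes, 28 kept the sign of their log2 fold change in all 17 fits that were compared with the main one. Of 696 such comparisons 647 kept both the sign and the side of the threshold, 14 passed the threshold and 35 changed sign. The count of genes past an adjusted p of 0.05 was 0 in edgeR, 1 in DESeq2, 5 in limma-voom, 0 to 3 with 1 liver left out and 5 without both *Ctrl* 3 and *Srsf10-kd* 3. The median log2 fold change of the 41 (0.037) was 0.0087 to 0.12 with 1 liver left out, 0.12 without *Ctrl* 4 and 0.11 without *Srsf10-kd* 2, and 0.026 without 4 genes that share over 10% of their stretches. Genes whose groups do not overlap were 1 with TMM, 2 with DESeq2's size factors (*Timp1* added) and 3 with library size only (*Vim* added as well). The cause of these moves was not tested.

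Signs that changed were as follows. With the trend on transcript length removed, the log2 fold changes were 0.026 for *Col5a1*, 0.16 for *Col5a2*, 0.13 for *Col6a2*, 0.039 for *Col6a3*, 0.0056 for *Pdgfrb*, 0.011 for *Fbn1* and -0.036 for *Ecm1*. With limma-voom they were 0.014 for *Col5a2*, -0.035 for *Ecm1*, -0.00078 for *Loxl2* and 0.11 for *Mmp14*. Without both *Ctrl* 3 and *Srsf10-kd* 3 they were -0.026 for *Des*, -0.12 for *Ecm1*, 0.016 for *Mmp14* and -0.012 for *Timp2*. With 1 liver left out in turn they ranged from -0.24 to 0.020 for *Col5a2*, -0.13 to 0.049 for *Col6a2*, -0.22 to 0.34 for *Col15a1*, -0.14 to 0.18 for *Des*, -0.012 to 0.34 for *Dcn*, -0.047 to 0.18 for *Ecm1*, -0.17 to 0.14 for *Mmp14* and -0.058 to 0.11 for *Timp2*.

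The labels give replicate numbers and no source for them. Same-numbered livers deviated from their group means with correlations of -0.18, 0.21, 0.27 and 0.22, so 1 of the 4 pairs lay under the 0.1 required of every pair. By that rule same-numbered livers were not taken as pairs, although 5 of 8 livers correlated best with their own number. Some link between them is thus not excluded. With the replicate number as a block (replicate block), edgeR called 59 of 15491 genes in place of 11. Of the 41 genes 0 passed, 10 had an unadjusted p under 0.05 in place of 6, with that of *Col18a1* at 0.00541 in place of 0.0927, the median was 0.025, and of the 41 only *Col15a1* changed sign, to -0.026. With this depth *Timp1*, at 5 to 12 counts in a liver, is the gene whose counts limit it most.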
